A study of Mus musculus with 6 samples.

Results

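MAP kinase phosphatases, the Sprouty and Spred feedback inhibitors, and the MAP kinases and MAP kinase kinases of the same pathways were examined in mouse hippocampus. The members were all rows of the gene tables whose name begins with Dusp, Spry, Spred, Mapk or Map2k followed by a digit, which gave 50 genes on 51 rows out of 15616 distinct names on 15639 rows. They were 19 Dusp, 4 Spry, 3 Spred, 17 Mapk and 7 Map2k genes, and Map2k7 stood on 2 rows. The Mapk names took in 5 genes of scaffold or interacting proteins, such as Mapk8ip1. The study compared 3 libraries labelled APP/PS1, from mice carrying the APP695swe and PS1-dE9 mutations, with 3 labelled WT, all from frozen hippocampus at 6 months of age. The labels give no strain, sex, litter or transgene promoter and leave unsaid whether each replicate is its own animal. The p-values therefore speak only to variation among these 6 libraries, and part of it may be technical. Values are as the authors deposited them and were read as FPKM, fragments scaled to transcript length and to library size. The unit was inferred, and on that reading levels can be set side by side between genes.

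In a MAP kinase cascade a MAP kinase kinase (Map2k gene) phosphorylates a MAP kinase (Mapk gene) of the ERK, JNK or p38 branch, and a dual-specificity phosphatase (Dusp gene) removes those phosphates. Sprouty and Spred proteins act further up, where they restrain the path from growth factor receptors through Ras and Raf to ERK. In hippocampal neurons ERK signalling follows synaptic activity and neurotrophins, and several of its brakes are themselves transcribed in response to it, which closes a negative feedback loop. Members known for such induction (Dusp1, Dusp2, Dusp4, Dusp5, Dusp6, Dusp14, Spry2 and Spry4) are called activity-induced here. All others, which include the kinases, are called other members. Many of them are thought of as largely constitutive, though not all need be.

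Promoter sequence is shown for the activity-induced members with an entry whose labels do not overlap below, and for Map2k1, an abundant kinase of the ERK cascade, as an other member. Windows run from 250 bases before to 50 bases after the RefSeq gene start (GRCm38.p6) and are written along the gene's own strand: Dusp1 at chr17:26508423-26508722 on the minus strand, Dusp5 at chr19:53528895-53529194 on the plus strand, Dusp6 at chr10:99262981-99263280 on the plus strand, Spry2 at chr14:105896770-105897069 on the minus strand and Map2k1 at chr9:64253556-64253855 on the minus strand. Capitals mark every match, on either strand, to the full cyclic AMP response element (CRE, TGACGTCA), its core (TGACG, which also lies within the full element), the AP1 element (TGANTCA), the Egr element (GCGNGGGCG) or the CArG box bound by serum response factor.
Dusp1: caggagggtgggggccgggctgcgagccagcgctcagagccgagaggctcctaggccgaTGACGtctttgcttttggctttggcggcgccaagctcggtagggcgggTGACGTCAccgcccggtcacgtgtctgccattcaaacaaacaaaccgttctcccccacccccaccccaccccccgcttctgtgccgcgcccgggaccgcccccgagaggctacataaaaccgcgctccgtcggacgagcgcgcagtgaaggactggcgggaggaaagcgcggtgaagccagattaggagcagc
Dusp5: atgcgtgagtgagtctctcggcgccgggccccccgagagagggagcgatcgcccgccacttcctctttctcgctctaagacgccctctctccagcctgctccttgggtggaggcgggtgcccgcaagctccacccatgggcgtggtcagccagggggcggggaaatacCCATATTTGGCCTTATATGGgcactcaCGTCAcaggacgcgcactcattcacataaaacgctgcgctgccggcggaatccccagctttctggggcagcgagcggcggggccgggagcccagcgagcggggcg
Dusp6: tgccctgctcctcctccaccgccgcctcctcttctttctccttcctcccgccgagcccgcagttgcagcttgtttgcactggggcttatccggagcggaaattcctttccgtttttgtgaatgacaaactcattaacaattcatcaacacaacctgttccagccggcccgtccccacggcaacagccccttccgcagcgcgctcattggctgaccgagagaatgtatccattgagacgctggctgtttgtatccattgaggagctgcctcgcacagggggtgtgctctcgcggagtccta
Spry2: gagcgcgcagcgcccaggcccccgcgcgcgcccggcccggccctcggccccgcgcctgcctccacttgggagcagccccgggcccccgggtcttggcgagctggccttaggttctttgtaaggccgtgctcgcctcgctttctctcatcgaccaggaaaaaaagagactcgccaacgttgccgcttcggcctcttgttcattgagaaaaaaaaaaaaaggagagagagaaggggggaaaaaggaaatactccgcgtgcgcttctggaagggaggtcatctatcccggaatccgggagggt
Map2k1: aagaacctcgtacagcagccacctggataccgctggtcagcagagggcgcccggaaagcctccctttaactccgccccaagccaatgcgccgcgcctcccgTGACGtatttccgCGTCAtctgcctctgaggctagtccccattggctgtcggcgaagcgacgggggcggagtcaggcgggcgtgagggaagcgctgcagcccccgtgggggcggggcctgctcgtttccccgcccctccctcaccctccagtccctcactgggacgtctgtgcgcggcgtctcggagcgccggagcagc

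Dusp1 held 1 full CRE, at position -143 from the gene start, and a further CRE core at -191. Dusp5 held 2 adjacent CArG boxes and, just after them, 1 CRE core. None of the letters searched were in the Dusp6 and Spry2 windows, and Map2k1 held 2 CRE cores. Of the members, 38 had a promoter entry, 5 of them activity-induced. The full CRE was in 1 of the 5 (Dusp1) and in 2 of the 33 other members (Dusp8 and Mapk10), against 3.60% of the 10665 genes of the table with an entry. The CRE core was in 2 of the 5 and 13 of the 33, against 34.8% of those genes. The CArG box was in 1 of the 5 and 0 of the 33, against 1.58%, the AP1 element in 0 of the 5 and 2 of the 33, against 5.87%, and the Egr element in 0 of the 5 and 4 of the 33, against 12.7%.

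The libraries were checked before members were compared. App, from which the transgene derives, had 153.1, 71.0 and 166.2 FPKM in APP/PS1 replicates 1 to 3, against 69.8, 68.5 and 145.6 FPKM in WT replicates 1 to 3 (exact two-sided permutation p = 0.2, where 3 against 3 cannot go below 0.1). Prnp, whose promoter drives the transgenes in the widely used line of this name, split in the same way, so the libraries labelled APP/PS1 replicate 2 and WT replicate 3 went against their labels. Groups are therefore named by label, and main results are also given in the 4 libraries without those 2. FPKM summed to 182355 to 185217 in a library, and how many reads lie behind these values is unknown. All 6 hippocampal neuron markers, Prox1 and Camk2a among them, were present in every library, and their summed level was 383 to 393 FPKM in APP/PS1-labelled libraries against 414 to 427 FPKM in WT-labelled libraries. A list of 15 activity-dependent transcription and effector genes (Fos, Egr1, Arc, Npas4 and others) summed to 273, 356 and 224 FPKM in APP/PS1 replicates 1 to 3, against 569, 482 and 419 FPKM in WT replicates 1 to 3. Mitochondrial transcripts made up 10.3%, 9.70% and 11.3% of FPKM in APP/PS1-labelled libraries, against 9.30%, 8.87% and 9.31% in WT-labelled libraries. These 3 measures did not overlap between the labels. Summed markers of other cell types overlapped, with APP/PS1-labelled libraries set against WT-labelled libraries in each case: oligodendrocytes 241 to 296 against 190 to 255 FPKM, astrocytes 136 to 159 against 137 to 171 FPKM, microglia 25.8 to 34.7 against 29.8 to 34.8 FPKM, choroid plexus 1081 to 1357 against 831 to 1176 FPKM, endothelium 18.4 to 21.7 against 19.4 to 20.2 FPKM and thalamus 13.8 to 15.2 against 11.8 to 15.6 FPKM. No marker was at 0. The part of any of these in the results below was not tested, and in bulk tissue fewer cells of a type and less RNA per cell cannot be told apart.

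**Figure D1:**
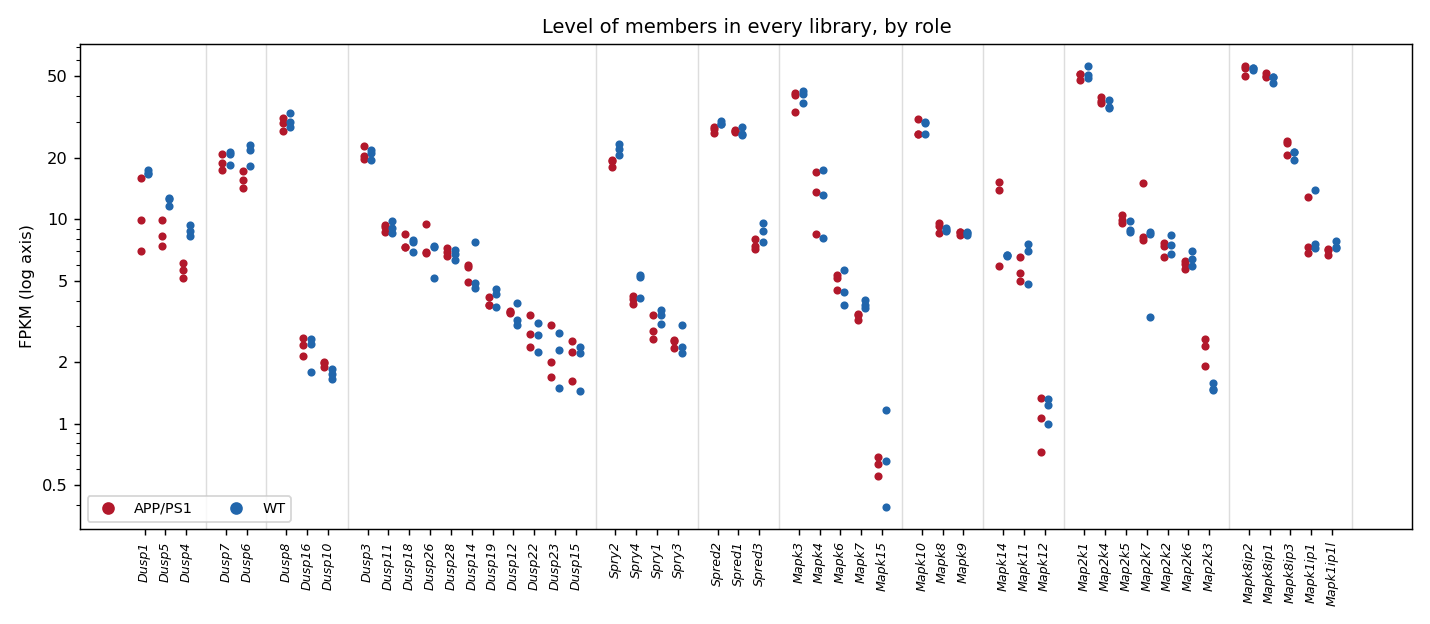
FPKM of 49 member genes in each library on a log axis, APP/PS1-labelled libraries (red) left of WT-labelled libraries (blue) for each gene, grouped by role from nuclear phosphatases (left) to scaffold proteins (right). Of the genes drawn, Mapk8ip2, Map2k1 and Mapk8ip1 lie highest and Mapk15 lies lowest, and for most the libraries of the labels overlap.

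Of the 50 genes, 49 passed the filter of at least 1 FPKM in at least 3 libraries and were tested with all 13700 such genes by limma on log2(FPKM + 1). None passed an adjusted p of 0.05 in either direction, where 0.0146% of all genes tested were called lower and 0.0073% higher. At an unadjusted p under 0.05, 5 members were lower and 1 was higher, against 3.83% and 2.85% of all genes tested, and all 5 that were lower belonged to the activity-induced group. The libraries of the labels did not overlap for 8 members on the lower side and 3 on the higher side (6.51% and 5.38% of all genes tested). The 8 were 5 of the 7 activity-induced members tested and 3 of the 42 other members (7.14%), so among other members the share lay near that of all genes. The median log2 fold change was -0.39 over the activity-induced members, 0.01 over the other members and -0.00089 over all genes tested. A negative sign was found for 27 of the 49 members, against 50.4% of all genes tested. In the 4 libraries, 8 members were lower and 3 higher at an unadjusted p under 0.05, against 4.9% and 4.23% of the genes tested there. The lower ones were not all activity-induced. They took in the other members Spry1 and Spred3, at log2 fold changes of -0.27 and -0.30 (adjusted p = 0.509 and 0.409 by limma).

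**Figure D2:**
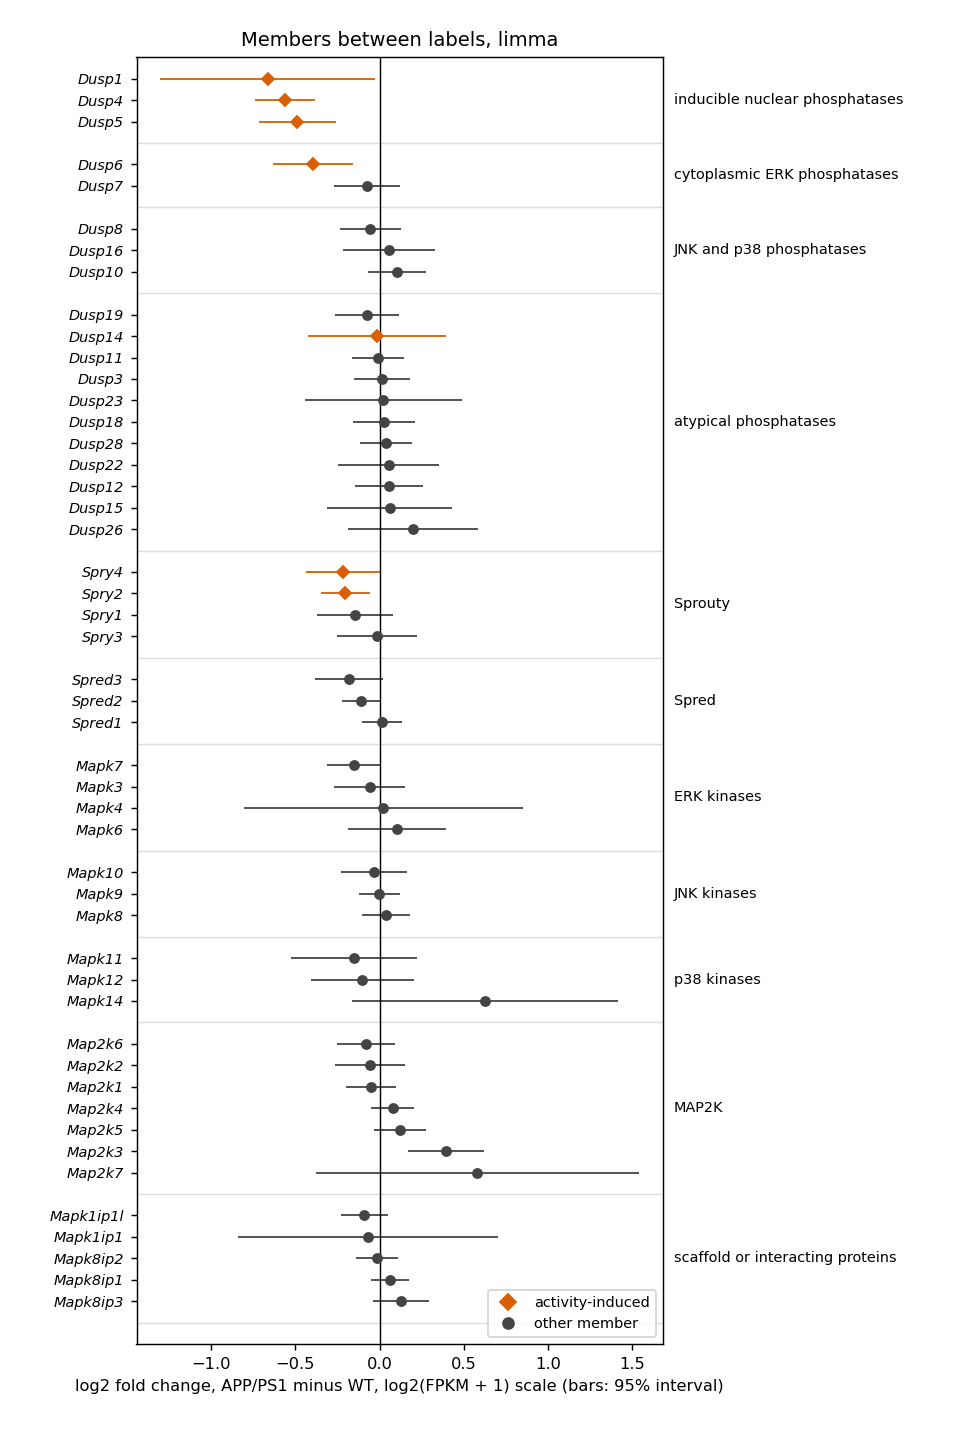
Log2 fold change of 48 tested members, APP/PS1-labelled minus WT-labelled libraries on the log2(FPKM + 1) scale, with 95% intervals from limma, grouped by role; diamonds are activity-induced members. Dusp1, Dusp4, Dusp5, Dusp6 and Spry2 have intervals below 0 and Map2k3 above 0, while the other 42 intervals drawn hold 0.

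The nuclear phosphatases were lower in every APP/PS1-labelled library than in any WT-labelled library. Dusp4 encodes an inducible nuclear phosphatase of ERK and JNK. It had 6.09, 5.65 and 5.14 FPKM in APP/PS1 replicates 1 to 3, against 8.75, 9.32 and 8.28 FPKM in WT replicates 1 to 3. The labels were thus well apart, with little spread inside either. The means were 5.62 ± 0.476 and 8.78 ± 0.525 FPKM (SD, n = 3 each), a level 64.0% of that in WT-labelled libraries and a log2 fold change of -0.56 ± 0.08 (SE). By p-value Dusp4 ranked 10 among the 13700 genes, with an adjusted p = 0.158 by limma. Since earlier results on Dusp4 in these libraries were known, this rank is not independent evidence. In the 4 libraries its log2 fold change was -0.61 (adjusted p = 0.189). For Dusp4 the library labelled APP/PS1 replicate 2, low in App and Prnp, lay between the other two of its label.

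Dusp5, a nuclear phosphatase selective for ERK, had 7.40, 9.89 and 8.27 FPKM in APP/PS1-labelled libraries, against 12.5, 12.6 and 11.6 FPKM in WT-labelled libraries. APP/PS1 replicate 2 had the highest Dusp5 value of its label. The log2 fold change was -0.49 ± 0.10 (SE, adjusted p = 0.357 by limma), and -0.62 in the 4 libraries (adjusted p = 0.1003). Dusp1, a nuclear phosphatase that acts on p38 and JNK as well as ERK and is an immediate early gene, had 9.88, 15.9 and 6.97 FPKM in APP/PS1-labelled libraries, against 16.8, 16.7 and 17.5 FPKM in WT-labelled libraries. It barely separated the labels, with APP/PS1 replicate 2 just under the lowest WT-labelled library, and its coefficient of variation was 41.7% among APP/PS1-labelled libraries against 2.49% among WT-labelled libraries. Its log2 fold change was -0.66 ± 0.26 (SE, adjusted p = 0.741 by limma), and -0.93 in the 4 libraries (adjusted p = 0.259). Without APP/PS1 replicate 3, the lowest library, the log2 fold change of Dusp1 was -0.41 (adjusted p = 0.870). Dusp2, the remaining nuclear member, was not analysed here.

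**Figure D3:**
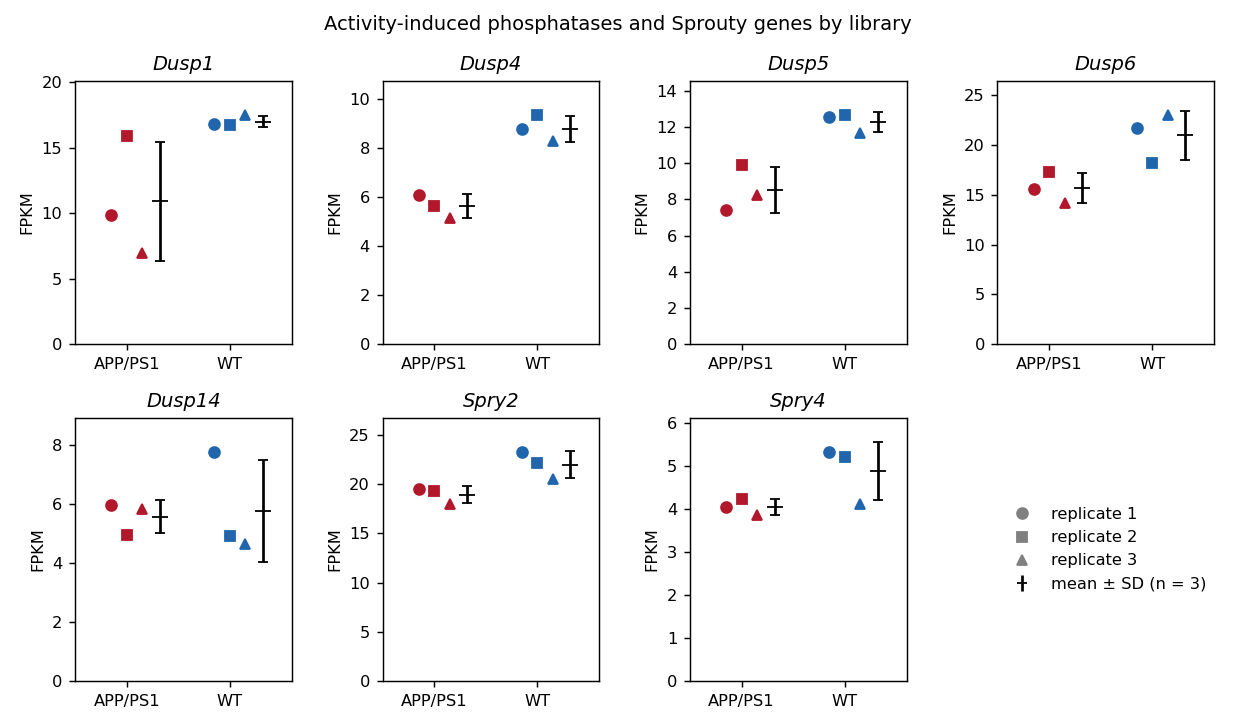
FPKM of the 7 activity-induced members with values, APP/PS1-labelled libraries (red) left of WT-labelled libraries (blue), marker shape giving the replicate and black bars the mean ± SD over 3 libraries, with axes from 0. Dusp1, Dusp4, Dusp5, Dusp6 and Spry2 show no overlap between labels, Spry4 overlaps through WT replicate 3, and Dusp14 overlaps, with WT replicate 1 high.

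Of the cytoplasmic phosphatases selective for ERK, Dusp6 separated the labels and Dusp7 overlapped. Dusp6, which is transcribed downstream of ERK itself, had 15.6, 17.3 and 14.2 FPKM in APP/PS1-labelled libraries, against 21.8, 18.2 and 23.0 FPKM in WT-labelled libraries. The gap between the labels was small beside the spread inside them, with APP/PS1 replicate 2 and WT replicate 2 adjacent. The log2 fold change was -0.39 ± 0.10 (SE, adjusted p = 0.547 by limma), and -0.40 in the 4 libraries. Dusp7, close to Dusp6 in level, averaged 19.1 ± 1.81 FPKM in APP/PS1-labelled and 20.1 ± 1.55 FPKM in WT-labelled libraries (SD, n = 3 each), with a 95% interval of its log2 fold change from -0.27 to 0.12. The difference between the fold changes of Dusp6 and Dusp7 was not tested. Dusp9 was not analysed here.

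All 4 Sprouty genes had a negative log2 fold change with the 6 libraries, smaller than those of the nuclear phosphatases, and Spry3 was positive in the 4 libraries (0.07). Spry2, the most abundant of them, had 19.5, 19.3 and 17.99 FPKM in APP/PS1-labelled libraries, against 23.3, 22.1 and 20.6 FPKM in WT-labelled libraries. The labels did not overlap, and the log2 fold change was -0.20 ± 0.06 (SE, adjusted p = 0.639 by limma). Spry4, an ERK-induced Sprouty, had 4.05, 4.22 and 3.85 FPKM in APP/PS1-labelled libraries, against 5.32, 5.20 and 4.11 FPKM in WT-labelled libraries, where WT replicate 3 alone lay among APP/PS1-labelled values. Spry4 had a log2 fold change of -0.22 with all libraries (adjusted p = 0.755 by limma) and of -0.34 in the 4 libraries (adjusted p = 0.371), where WT replicate 3 is left out. Spry1 had a log2 fold change of -0.15 and Spry3 of -0.02, and both overlapped between labels. In the 4 libraries the log2 fold change of Spry1 was -0.27.

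The Spred genes encode Sprouty-related proteins, of which Spred1 is known to bring neurofibromin to Ras. Spred1 averaged 27.0 ± 0.365 and 26.8 ± 1.18 FPKM in APP/PS1-labelled and WT-labelled libraries (SD, n = 3 each), with an interval of its log2 fold change from -0.10 to 0.13. Spred2, at almost the same level, had 27.8, 28.1 and 26.5 FPKM in APP/PS1-labelled libraries, against 29.4, 30.4 and 29.3 FPKM in WT-labelled libraries. It separated the labels by a log2 fold change of only -0.11 (adjusted p = 0.741 by limma). Spred3, the least abundant, had 7.42, 8.03 and 7.15 FPKM in APP/PS1-labelled libraries, against 8.80, 9.59 and 7.70 FPKM in WT-labelled libraries and overlapped through WT replicate 3 (log2 fold change -0.18). In the 4 libraries, where WT replicate 3 is left out, the log2 fold change of Spred3 was -0.30.

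Of Dusp8, Dusp10 and Dusp16, phosphatases known mainly for JNK and p38, 1 had a negative sign with the 6 libraries and 2 in the 4 libraries, Dusp8 at -0.15 and Dusp16 at -0.11. Dusp8, the most abundant Dusp gene here, averaged 29.3 ± 2.20 and 30.5 ± 2.38 FPKM in APP/PS1-labelled and WT-labelled libraries (SD, n = 3 each). Dusp10 had 1.996, 1.97 and 1.88 FPKM in APP/PS1-labelled libraries, against 1.85, 1.75 and 1.64 FPKM in WT-labelled libraries, and so stood higher without overlap by a log2 fold change of 0.10 (adjusted p = 0.872 by limma). Dusp16 had a log2 fold change of 0.05 with the 6 libraries. Among the 11 atypical phosphatases, which lack the MAP kinase binding region of the typical ones, 8 had a positive and 3 a negative sign with the 6 libraries as deposited (Dusp3 and Dusp15 turned negative in the 4 libraries, and Dusp11 positive under TMM scaling), 0 separated the labels, and log2 fold changes ran from -0.07 for Dusp19 to 0.20 for Dusp26. Dusp3, the most abundant of them, averaged 21.0 ± 1.62 and 20.7 ± 1.17 FPKM, and Dusp11, which acts on RNA, 9.06 ± 0.378 and 9.14 ± 0.603 FPKM, in APP/PS1-labelled and WT-labelled libraries (SD, n = 3 each). Dusp12 had a log2 fold change of 0.05. Dusp14, the atypical member placed in the activity-induced group, had 5.95, 4.93 and 5.81 FPKM in APP/PS1-labelled libraries, against 7.75, 4.90 and 4.62 FPKM in WT-labelled libraries. Only WT replicate 1 stood out, and without it the log2 fold change of Dusp14 was 0.19, against -0.02 with all libraries.

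Set beside each other, the activity-induced members stood apart by label on average, and the average of the other members lay close to 0 in every library. Single other members, such as Mapk14 and Map2k7, did not. An average over 42 genes also tends to vary less than an average over 7. The mean log2(FPKM + 1) of the 7 activity-induced members, around the mean of the 6 libraries, was -0.18, -0.06 and -0.30 in APP/PS1 replicates 1 to 3, against 0.28, 0.16 and 0.11 in WT replicates 1 to 3. For the 42 other members it was 0.05, -0.00024 and -0.0036 in APP/PS1-labelled libraries, against -0.016, 0.0077 and -0.038 in WT-labelled libraries. The activity transcription list, built without any member, ran in the same order over the 6 libraries as the activity-induced members, at -0.39, -0.05 and -0.69 in APP/PS1 replicates 1 to 3, against 0.55, 0.36 and 0.22 in WT replicates 1 to 3. All 15 of its genes had a negative log2 fold change (50.4% of all genes tested), 12 were lower without overlap between labels (6.51%), 13 were lower at an unadjusted p under 0.05 (3.83%) and 0 passed an adjusted p of 0.05 by limma. The library labelled APP/PS1 replicate 3 was lowest of the 6 for 5 of the 7 activity-induced members, and WT replicate 3 was lowest of WT-labelled libraries for 5 of the 7. The 5 of the 7 that separated the labels with the 6 libraries must also do so with any library left out, so this is no check of stability. Spry4 was added without APP/PS1 replicate 2, without WT replicate 3, or without both. No member was added when APP/PS1 replicate 1 or 3 or WT replicate 1 or 2 was left out. The share of all genes that separate with fewer libraries was not computed. Earlier results on Dusp4 and on immediate early genes in these libraries were known when the activity-induced group and the activity transcription list were chosen. The shared direction within each list, and the order common to both, are therefore not independent evidence.

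**Figure D4:**
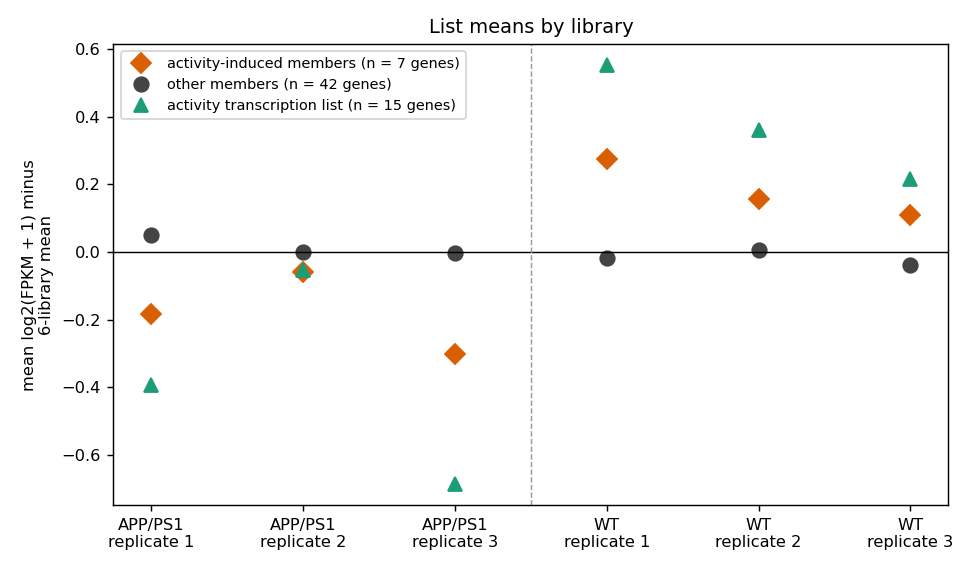
Mean deviation of log2(FPKM + 1) from the mean of the 6 libraries, by library, for the 7 activity-induced members (diamonds), the 42 other members tested (circles) and the 15 genes of the activity transcription list (triangles). The means of the activity-induced members and of the activity list lie below 0 in APP/PS1-labelled and above 0 in WT-labelled libraries. The mean of the other members stays between -0.04 and 0.05.

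Kinase levels mostly overlapped between the labels, with 9 positive and 9 negative signs among 18 tested. Mapk3, a classical ERK kinase, averaged 38.6 ± 4.28 FPKM in APP/PS1-labelled and 40.1 ± 2.71 FPKM in WT-labelled libraries (SD, n = 3 each). Mapk7, the large ERK kinase of the Map2k5 branch, had 3.20, 3.45 and 3.41 FPKM in APP/PS1-labelled libraries, against 4.03, 3.81 and 3.69 FPKM in WT-labelled libraries, without overlap (log2 fold change -0.15, adjusted p = 0.749 by limma). Mapk6 had a log2 fold change of 0.10, and Mapk4, which like Mapk6 is an atypical member of the family, varied from 8.05 to 17.5 FPKM with no order by label. Mapk15 lay under the filter, at 0.637, 0.683 and 0.552 FPKM in APP/PS1-labelled libraries, against 0.391, 0.656 and 1.17 FPKM in WT-labelled libraries. Of the JNK kinases, Mapk10, the neuronal form, averaged 27.8 ± 2.67 and 28.4 ± 2.12 FPKM, Mapk8 9.14 ± 0.563 and 8.88 ± 0.180 FPKM, and Mapk9 8.53 ± 0.156 and 8.54 ± 0.143 FPKM, in APP/PS1-labelled and WT-labelled libraries (SD, n = 3 each). The interval of the Mapk9 log2 fold change ran from -0.12 to 0.12.

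Mapk14, the main p38 kinase gene, split the APP/PS1-labelled libraries. It had 13.9, 5.91 and 15.1 FPKM in APP/PS1 replicates 1 to 3, against 6.72, 6.71 and 6.63 FPKM in WT replicates 1 to 3. The libraries labelled APP/PS1 replicates 1 and 3 stood apart from the remaining 4, which lay within 1 FPKM of each other. With all libraries the log2 fold change was 0.63 ± 0.32 (SE, adjusted p = 0.813 by limma). Mapk14 was the only member called in any alternative: without APP/PS1 replicate 2 its log2 fold change was 1.01 (adjusted p = 0.00681 by limma), and in the 4 libraries it was 1.01 as well (adjusted p = 0.0265), where 0.0674% of genes tested were called higher. Both of these runs leave out APP/PS1 replicate 2, the library of its label with the low Mapk14 level. WT replicate 3, whose App and Prnp were high like those of APP/PS1 replicates 1 and 3, had the low Mapk14 level. The other p38 kinases, Mapk11 and Mapk12, had log2 fold changes of -0.15 and -0.10 and overlapped between labels, and Mapk13 was not analysed here.

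Among the MAP kinase kinases, Map2k3, which activates p38, had the clearest difference on the higher side. It had 2.59, 2.41 and 1.92 FPKM in APP/PS1-labelled libraries, against 1.46, 1.48 and 1.58 FPKM in WT-labelled libraries, a log2 fold change of 0.39 ± 0.10 (SE, adjusted p = 0.531 by limma). The labels did not overlap, and the level was among the lowest of the members. Map2k1 and Map2k4, the most abundant of the group and activators of ERK and of JNK, averaged 50.2 ± 1.96 and 38.3 ± 1.46 FPKM in APP/PS1-labelled libraries and 52.1 ± 3.62 and 36.2 ± 1.67 FPKM in WT-labelled libraries (SD, n = 3 each). Map2k5 had a log2 fold change of 0.12, and Map2k2 and Map2k6 also overlapped between labels.

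Map2k7, an activator of JNK, stood on 2 rows of the table. The first row had 15.0, 7.94 and 8.22 FPKM in APP/PS1 replicates 1 to 3, against 3.32, 8.62 and 8.50 FPKM in WT replicates 1 to 3, and gave a log2 fold change of 0.58. The second row, under the filter, had 5.50 FPKM in WT replicate 1 and at most 0.142 FPKM elsewhere. Summed, the rows gave 15.0, 7.94 and 8.26 FPKM in APP/PS1-labelled libraries, against 8.82, 8.69 and 8.64 FPKM in WT-labelled libraries, so that the low WT replicate 1 came level with the others while APP/PS1 replicate 1 stayed high, and the log2 fold change was 0.18. Mapk1ip1, named for its interaction with a MAP kinase, split the libraries in yet another way, at 7.34, 12.8 and 6.83 FPKM in APP/PS1-labelled libraries, against 7.19, 13.9 and 7.52 FPKM in WT-labelled libraries, with replicate 2 of each label high. Such members, which vary by 25% or more inside a label, numbered 8 of the 49 tested, and apart from Dusp1, Dusp14, Mapk14, Map2k7, Mapk4 and Mapk1ip1 they were the low-level genes Dusp23 and Mapk12.

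**Figure D5:**
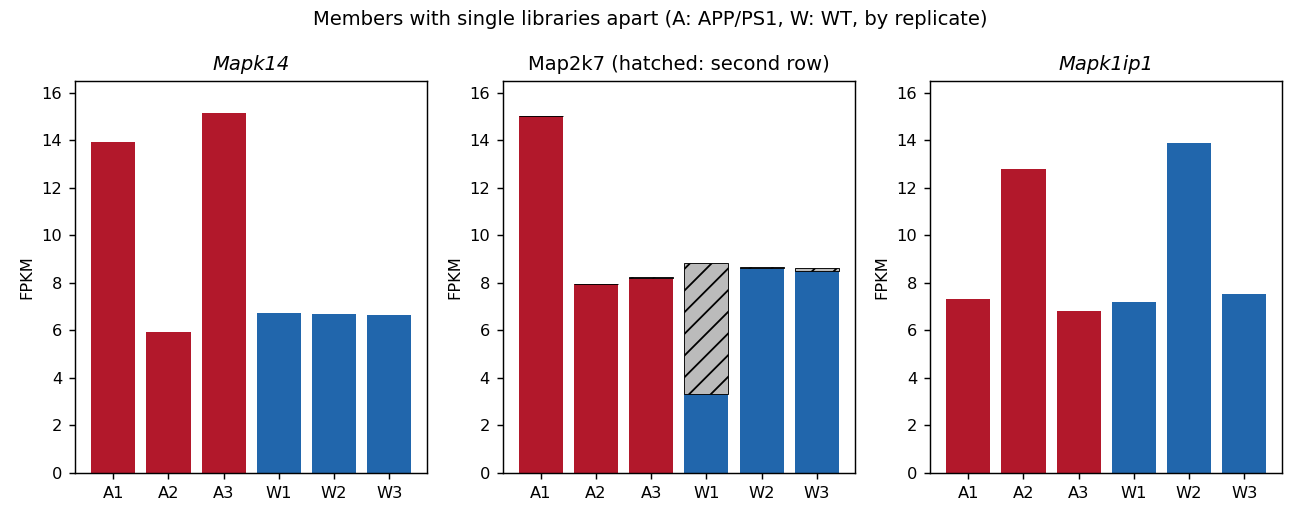
FPKM of Mapk14, Map2k7 and Mapk1ip1 in each library, with APP/PS1-labelled libraries (A, red) left of WT-labelled libraries (W, blue), numbered by replicate; bars start at 0, and the hatched part is the second Map2k7 row stacked on the first. Mapk14 is high in A1 and A3, Map2k7 in A1 once its rows are stacked, and Mapk1ip1 in A2 and W2.

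The JNK scaffolds were among the most abundant members. Mapk8ip2 averaged 53.9 ± 3.06 and 54.4 ± 0.636 FPKM in APP/PS1-labelled and WT-labelled libraries (SD, n = 3 each). Mapk8ip1 had 49.8, 50.1 and 52.3 FPKM in APP/PS1-labelled libraries, against 49.6, 49.5 and 46.6 FPKM in WT-labelled libraries, without overlap but by a log2 fold change of only 0.06 (adjusted p = 0.880 by limma). Mapk8ip3 had a log2 fold change of 0.13 and overlapped. Mapk1ip1l was lower without overlap, at 7.11, 7.06 and 6.66 FPKM in APP/PS1-labelled libraries, against 7.34, 7.24 and 7.79 FPKM in WT-labelled libraries (log2 fold change -0.09). Of the 42 other members, 35 had a 95% interval lying within 0.5 of 0 on the log2 scale, and those that did not were Dusp26, Mapk4, Mapk11, Mapk14, Map2k3, Map2k7 and Mapk1ip1. The activity-induced members Spry2, Spry4 and Dusp14 had such an interval as well. The share of all genes tested with such an interval was not computed.

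The rest of the pathway was described through lists of genes grouped by function. None of the 75 genes tested in 5 lists passed an adjusted p of 0.05 by limma, and 3 were lower and 1 higher at an unadjusted p under 0.05 (3.83% and 2.85% of all genes tested). Of 24 genes of the Ras and Raf arm 14 had a negative sign (median log2 fold change -0.01), with Shc1, an adaptor of receptor tyrosine kinases, at -0.16. The Ras exchange factors Rasgrf1 and Rasgrf2 had log2 fold changes of -0.10 and -0.17, and that of Rasgrf2 was 0.0082 in the 4 libraries. Of 9 brakes on Ras signalling 8 were negative, with a median of -0.03. Among them Errfi1, an inducible feedback inhibitor of the EGF receptor, had 12.4, 17.9 and 11.8 FPKM in APP/PS1-labelled libraries, against 18.4, 19.2 and 22.6 FPKM in WT-labelled libraries. Errfi1 separated the labels with APP/PS1 replicate 2 the highest of its label, as in Dusp1, and had a log2 fold change of -0.50 (adjusted p = 0.643). Rasa3 had a log2 fold change of -0.15, and of 0.06 without WT replicate 1. The 14 tested kinases of the MAP3K layer lay between -0.09 (Map3k4) and 0.08 (Taok1), with Taok2 at -0.06, and the 5 other MAP kinase phosphatases had a median of 0.02, with Ptpn5, a neuronal tyrosine phosphatase, at 0.08, and the catalytic subunits of phosphatase 2A, Ppp2ca and Ppp2cb, at 0.02 and -0.09. Downstream, 13 of 23 kinases and transcription factors were negative, among them Srf, which binds the CArG box, at 12.9, 13.9 and 12.6 FPKM in APP/PS1-labelled libraries, against 16.0, 15.1 and 14.3 FPKM in WT-labelled libraries. Srf and its partner Elk1 separated the labels on the lower side at a log2 fold change of -0.19 each. Rps6ka5, a nuclear kinase activated by ERK and p38, separated them on the higher side at 0.21 (adjusted p = 0.642).

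No circular RNA could be placed in a member gene. Of 2246 circRNAs, 257 were listed with coordinates, and 254 of these lay inside a gene of the GRCm38 RefSeq table. The submitters' notes name the build mm9, so GRCm38 was inferred from this fit, and placement on mm9 was not tried. On GRCm38, none of the 257 lay inside any of the 50 member genes. The other 1989 were listed by a database number alone, were not placed on genes here, and could include circles from members.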

How the data were processed

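Hippocampal total RNA of 6 libraries was sequenced after Trizol extraction and TruSeq library construction, per the labels' protocols. The deposited gene tables were read as FPKM. No header names the unit, which was inferred because values have decimals, because their sums fall short of what TPM would give, and because StringTie is named, together with FastQC, HISAT2 and the build mm9, in the submitters' processing notes without versions or roles. For circRNAs the authors deposited read counts, 13998 to 19584 in a library, and no source used here names a caller. Ratios of low FPKM between libraries did not recur (at most 1.73% of genes in any bin of ratios), so whole reads were not recovered.

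The filter kept rows reaching 1 FPKM in 3 or more libraries, and limma 3.58.1 was fitted (R 4.3.3, trend and robust settings) to log2(FPKM + 1), with Benjamini-Hochberg adjustment over all 13700 genes and a threshold of 0.05. Fold changes use that scale, so those of low genes come out too small. The fit was also run on simulated data. The outcome is not reported here, so the power to call changes of the size seen in these members is left unstated. Named genes were the activity-induced members, members whose labels did not overlap, up to 3 per role or list by smallest p, the 2 most abundant per role and members under the filter. A few genes that the rule names are counted but not reported here. Members, lists and the rule were chosen with earlier results of these data known. Promoters are RefSeq windows of GRCm38.p6. Alternatives were a pseudocount of 0.1, no filter, quantile or TMM scaling (edgeR 4.0.16, factors only), limma without trend, the replicate number as a block, libraries left out and, added after the data were seen, rows of 1 name summed.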

Additional observations from a re-analysis of the deposited data

How the results depend on the processing

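With 3 libraries per label and no known depth, differences of low genes are the least certain, and 0 members passed the threshold with a pseudocount of 0.1, without the filter, under quantile or TMM scaling, without trend or with rows of 1 name summed. As these members were not called, their stability concerns direction and size. The count of called members on the higher side was 0 to 1 over the single libraries left out and 1 in the 4 libraries, in each case Mapk14, and on the lower side 0 in every alternative run. Over all genes, 3 were called with the 6 libraries, 23 in the 4 libraries, 1 with the replicate block and 2 to 30 with single libraries left out. At an unadjusted p under 0.05 the count on the higher side was 1 to 2 with single libraries left out (2 without APP/PS1 replicate 2 or 3 or WT replicate 3) and 3 in the 4 libraries, and on the lower side 4 to 7 and 8. The median of the activity-induced members was -0.47 to -0.33 with single libraries left out. It moved to -0.53 over a narrower list of Dusp1, Dusp4, Dusp5 and Dusp6. That list leaves out Dusp14 and both Sprouty genes, the activity-induced members with the smallest changes, so a median further from 0 was certain. Dusp4 had a log2 fold change of -0.64 to -0.51 over its 14 alternatives (adjusted p from 0.137 to 0.481), and Dusp5 -0.62 to -0.40 (0.0711 to 0.766).

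With the replicate number as a block, 0 members passed and 7 were lower at an unadjusted p under 0.05. Same-numbered libraries did not deviate together over all genes (correlations of 0.0098, -0.056 and -0.094). Whether they share a batch or preparation that touches some genes cannot be told from these correlations. Some signs turned. In the 4 libraries these were, among members, Dusp3 (-0.0122), Dusp15 (-0.11), Dusp16 (-0.11), Spry3 (0.0651) and Mapk10 (0.0305), and, among pathway genes named, Rasgrf2 (0.00819). Among genes named, scaling turned Mapk9 (0.0102 by quantiles and 0.0111 by TMM), Mapk8ip2 (0.00544 by quantiles) and Dusp11 (0.00198 by TMM). With single libraries left out, the named genes whose sign turned ran from -0.00101 to 0.134 for Dusp12, -0.134 to 0.185 for Dusp14, -0.0588 to 0.126 for Dusp16, -0.105 to 0.00222 for Dusp8, -0.109 to 0.00449 for Mapk10, -0.205 to 0.0139 for Mapk12, -0.00136 to 0.232 for Mapk6, -0.0138 to 0.0120 for Mapk9, -0.00787 to 0.0480 for Spred1, -0.0430 to 0.0584 for Dusp3, -0.0503 to 0.0344 for Dusp11, -0.0880 to 0.00365 for Map2k1, -0.114 to 0.0331 for Mapk3, -0.0445 to 0.0318 for Mapk8ip2 and -0.306 to 0.0615 for Rasa3. The cause was not tested. The alternatives planned for circRNAs in member genes were not run, since none were placed there.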
